A study of Mus musculus with 8 samples.

Results

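The genes of oxidative phosphorylation were followed in mouse kidney through ischemia-reperfusion injury, with and without a knockdown of Keap1. Members were all genes whose symbol begins with Nduf, Uqcr, Atp5 or Cox followed by a number from 4 to 8, together with Sdha, Sdhb, Sdhc and Sdhd. Symbols were taken from the RefSeq accession that the array files give for each probe. The rule found 91 genes, of which 88 were above background in at least 1 group and were tested among 20580 genes in all. These 88 comprised 36 subunits of complex I, 4 of complex II, 8 of complex III, 16 of complex IV, 17 of complex V and 7 complex I assembly factors named Ndufaf. Kidneys came from male mice aged 16 weeks in 4 groups of 2 arrays each. Wild-type normal kidneys (WT normal) and Keap1 knockdown normal kidneys (KD normal) were left kidneys that had not been injured. WT IRI and KD IRI were left kidneys taken 1 day after the renal artery and vein had been clamped for 45 min, with the right kidney left unclamped. The labels name no other allele or agent, do not describe how the knockdown was made, and do not say whether the uninjured mice had a sham operation. Nothing in them ties each array to its own mouse, so every p-value below measures the spread between these samples, which may be technical.

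Oxidative phosphorylation is carried out by 5 complexes of the mitochondrial inner membrane. Complexes I and II pass electrons from NADH and succinate to ubiquinone, complex III passes them on to cytochrome c, and complex IV passes them to oxygen. The proton gradient built by complexes I, III and IV drives ATP synthesis by complex V. Kidney tubule cells, above all those of the proximal tubule and thick ascending limb, hold many mitochondria and use this ATP for reabsorption. KEAP1 is the adaptor that marks the transcription factor NRF2 for degradation. Most subunits are encoded in the nucleus, and only nuclear-encoded ones are reported, since the array's accessions named none of the mitochondrially encoded subunits.

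Each array held 43379 spots other than controls, with none saturated and 62.1% to 67.8% well above background. Levels are the log2 of a probe's intensity divided by the 75th percentile of its own array, so a level of 0 equals that percentile. They can be compared between arrays for a gene but not between genes. Differences are in log2 units with limma's standard error (SE) and with p-values adjusted over all genes tested. Arrays numbered 1 lay on 1 slide and arrays numbered 2 on the other. Keap1 was at 2.75 and 2.66 in WT normal and at 1.50 and 1.40 in KD normal. It was at 2.66 and 2.50 in WT IRI and at 1.33 and 1.04 in KD IRI. All 4 KD arrays lay below all 4 WT arrays, and the difference without injury was -1.25 ± 0.12 (SE, adjusted p = 0.00400). The position of the probe relative to the altered allele was not analysed here.

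Most of these genes were lower 1 day after injury in both genotypes. In WT kidneys 83 of the 88 genes fell and none rose, with 25.2% of all genes tested called lower and 20.6% called higher. In KD kidneys 85 of the 88 fell and none rose, with 31.8% of all genes called lower and 27.5% called higher. No gene of the 88 was higher after injury at an unadjusted p under 0.05 in limma in either genotype, against 24% of all genes in WT and 29.6% in KD. The median difference was -0.80 in WT, a 1.74-fold lower level, and -0.90 in KD, 1.87-fold lower. The median over all genes tested was -0.08 in both. In WT both injured arrays lay below both normal arrays for 84 of the 88 genes, a pattern found in 43.2% of all genes. In KD it held for 85, against 44.7% of all genes. Relative to the WT normal mean, the median shift of the 88 genes was -0.72 and -0.88 on the WT IRI arrays and -0.90 and -1.01 on the KD IRI arrays. The KD normal arrays stood at 0.0057 and -0.036. Within slide 1 the median injury difference was -0.75 in WT and -0.90 in KD, and within slide 2 it was -0.87 and -0.95. In whole-kidney RNA, fewer cells of a type and less RNA per cell cannot be told apart.

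**Figure D1:**
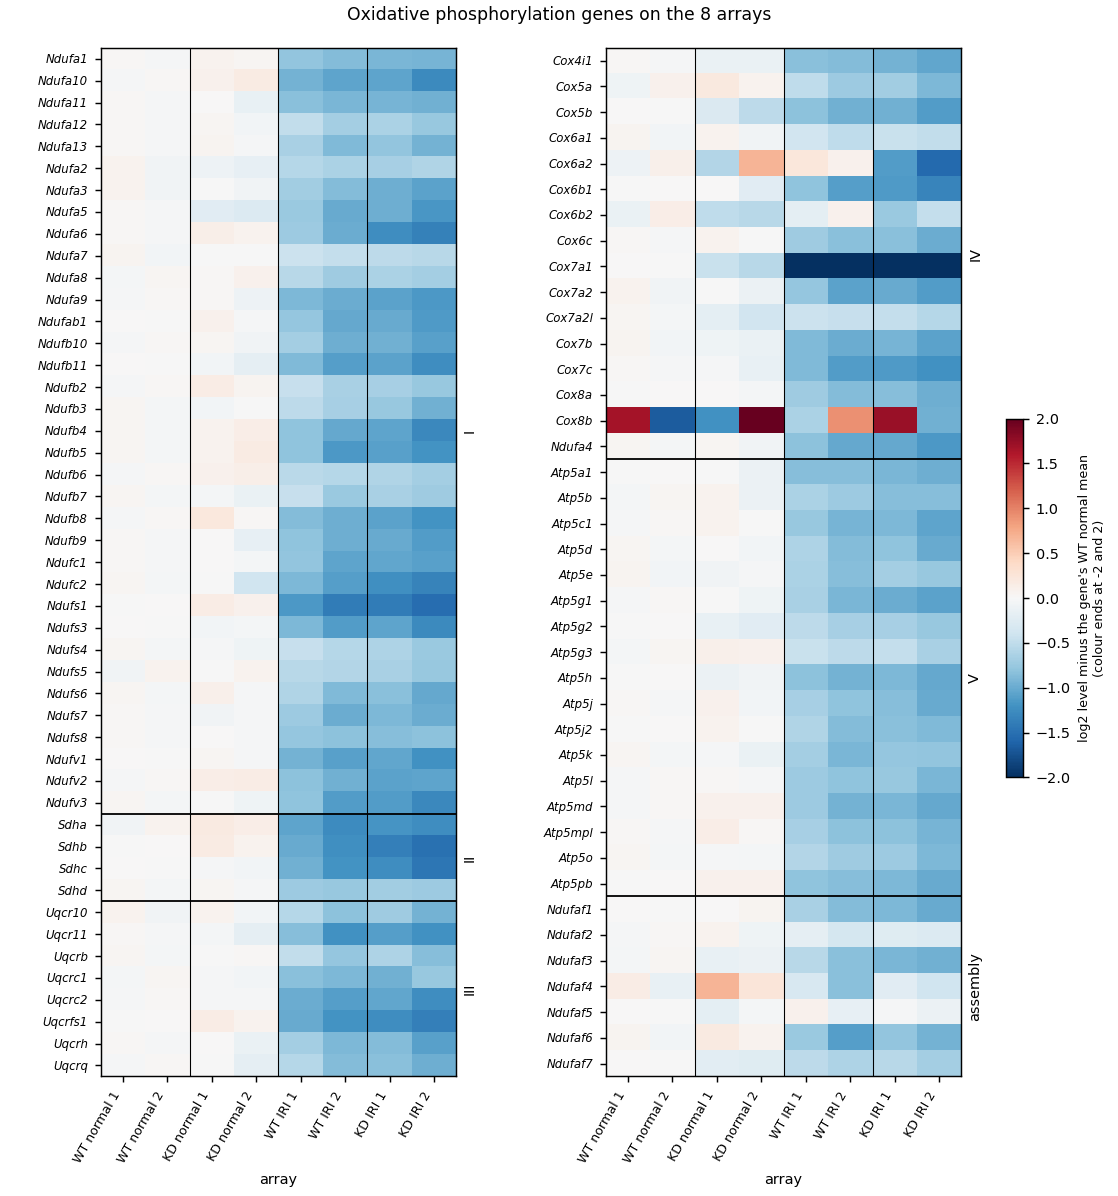
Colour map of 87 of the 88 genes (rows, grouped by complex) on the 8 arrays (columns), showing each gene's log2 level minus its WT normal mean, with colours ending at -2 and 2. The 4 IRI columns are blue for nearly every gene. Cox8b, Cox6a2, Cox6b2, Ndufaf4 and Ndufaf5 stand out from that pattern, and Cox6a1 and Atp5g3, blue here, turned above 0 in the WT comparison under quantile normalization.

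Most falls were shallow and alike in size. Counting only genes at least 2-fold lower, 11 of the 88 were called in WT and 31 in KD, with 8.19% and 13.9% of all genes called by that rule. By complex, the median difference in WT was -0.87 for complex I, -1.10 for complex II, -0.83 for complex III, -0.82 for complex IV and -0.74 for complex V. In KD the medians were -0.98, -1.34, -0.87, -0.91 and -0.88 in the same order. The 7 Ndufaf genes had medians of -0.58 in WT and -0.77 in KD. Both injury comparisons use their own normal kidneys and share no array. The scale mattered little to the sign of these falls: quantile normalization gave medians of -0.43 in WT and -0.51 in KD, while it turned Cox6a1 and Atp5g3 above 0 in WT. With normexp background correction the median of all genes itself moved to 0.20 in WT and -0.34 in KD, and that of the 88 genes to -0.97 and -0.77.

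**Figure D2:**
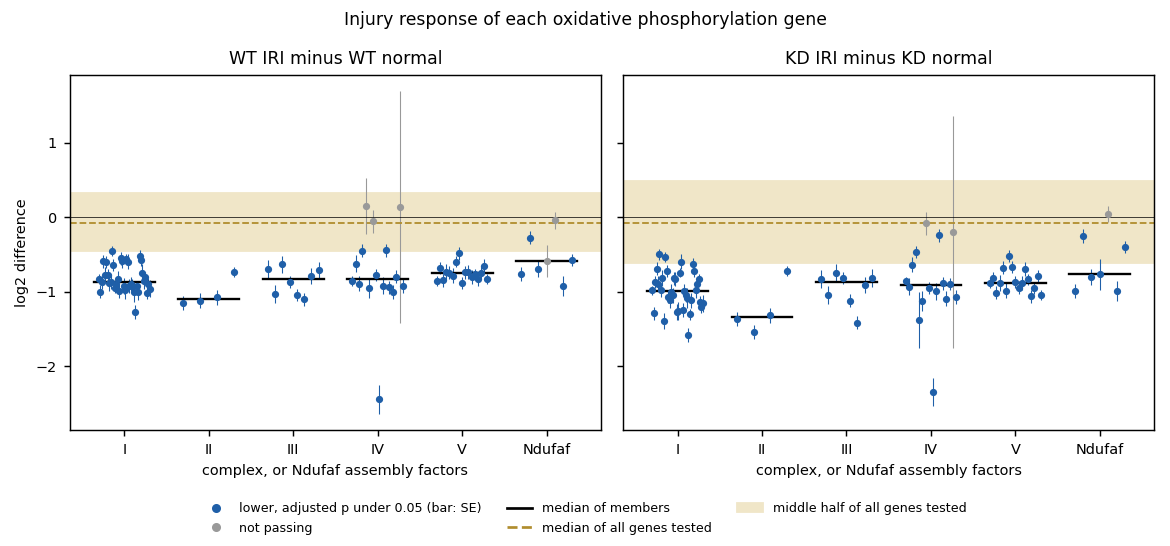
Injury difference of each gene (log2, bars are limma SE) by complex in WT (left) and KD (right), with black lines at the complex medians, a dashed line at the median of all genes tested and a shaded band at their interquartile range. Blue points passed the test as lower, with 83 in WT and 85 in KD. The lowest point in both panels is Cox7a1, and the point with the widest bar is Cox8b. Cox6a1 and Atp5g3, blue in WT, were above 0 there under quantile normalization.

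The upstream sequences of 4 genes are shown as examples. Cox7a1 had the largest fall. Sdhb was among the largest falls of complex II in both genotypes, and Atp5h had the largest fall of complex V in WT only. Sdhb and Atp5h were also picked for holding a searched motif. Cox5b was the only member called between the genotypes without injury. Each is the 250 bases before the RefSeq gene start, 5′ to 3′ on the gene's strand, in build GRCm38.p6. They lie at chr4:140961021-140961270 (Sdhb, plus strand), chr7:30183921-30184170 (Cox7a1, plus), chr11:115419920-115420169 (Atp5h, minus) and chr1:36691237-36691486 (Cox5b, plus). Capitals mark a match to the NRF1 core in Sdhb and to the ETS core in Atp5h, both on the opposite strand.
Sdhb: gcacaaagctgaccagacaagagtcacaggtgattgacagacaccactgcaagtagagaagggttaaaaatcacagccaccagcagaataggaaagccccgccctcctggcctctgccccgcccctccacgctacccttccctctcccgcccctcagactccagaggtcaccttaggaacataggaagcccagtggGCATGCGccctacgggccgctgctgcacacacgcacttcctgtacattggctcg
Cox7a1: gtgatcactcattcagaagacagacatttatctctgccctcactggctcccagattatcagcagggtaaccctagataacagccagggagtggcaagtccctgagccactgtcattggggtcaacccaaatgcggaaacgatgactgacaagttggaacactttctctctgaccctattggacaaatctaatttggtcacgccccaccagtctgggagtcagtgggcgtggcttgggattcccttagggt
Atp5h: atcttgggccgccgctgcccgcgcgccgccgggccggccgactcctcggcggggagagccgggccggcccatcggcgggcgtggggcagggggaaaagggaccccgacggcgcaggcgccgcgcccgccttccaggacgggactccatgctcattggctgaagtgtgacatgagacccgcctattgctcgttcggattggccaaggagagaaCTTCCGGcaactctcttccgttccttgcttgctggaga
Cox5b: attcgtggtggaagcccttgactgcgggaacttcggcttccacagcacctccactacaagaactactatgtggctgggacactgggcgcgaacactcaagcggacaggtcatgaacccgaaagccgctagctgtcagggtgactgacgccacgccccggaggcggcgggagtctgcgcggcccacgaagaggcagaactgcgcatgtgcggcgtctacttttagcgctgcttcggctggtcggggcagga

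Promoter windows of 300 bases, 250 before and 50 after the gene start, were present in RefSeq for 74 of the 88 genes. Both strands were searched for 4 short motifs. The core of nuclear respiratory factor 1, CGCATGC, was found in 12 of the 74 (16.2%), and in 3.64% of the windows of all 27025 genes. The ETS core CCGGAAG, bound by the GABP family, was found in 17 (23%), and in 9.12% of all windows. The YY1 core AAGATGG was found in 10 (13.5%), and in 6.48% of all. The antioxidant response element core TGACNNNGC, the motif through which NRF2 acts, was found in 11 (14.9%), and in 12.5% of all. The NRF1 or the ETS core was found in 24 of the 74 (32.4%), and in 12.2% of all. In Sdhb the NRF1 core lay at -54 to -48 from the start and an ETS core at 7 to 13 after it. In Atp5h the ETS core lay at -38 to -32. In Cox5b an antioxidant response core lay at 11 to 19 after the start, beyond the bases shown. The window of Cox7a1 held none of the 4 sets of letters. The windows of all genes include genes that were not tested here, and they were not matched to the members by base content. These matches are letters in a window, and no binding was measured.

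All 36 complex I subunits fell in both genotypes. With normexp 2 of these calls were lost in WT (Ndufa13 and Ndufs5) and 9 in KD, Ndufa2 and Ndufa7 among them. With quantile normalization 4 were lost in WT, Ndufa7 among them, and 3 in KD (Ndufa2, Ndufa7 and Ndufb7). The 7 core subunits, which carry the flavin and iron-sulphur groups and the quinone site, had a median difference of -0.93 in WT and -1.14 in KD. The 29 accessory subunits, which surround and stabilise them, had medians of -0.83 and -0.98. Ndufs1, the large iron-sulphur subunit of the NADH-oxidising arm, had the largest fall of the complex. It was at 5.54 and 5.55 in WT normal, 4.39 and 4.15 in WT IRI, 5.69 and 5.64 in KD normal, and 4.15 and 4.02 in KD IRI. The injured arrays were thus lower in both genotypes with no overlap. Ndufs1 fell 2.42-fold in WT (-1.28 ± 0.10, adjusted p = 0.000169) and 2.98-fold in KD (-1.58 ± 0.10, adjusted p = 3.38e-05).

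Ndufv1, the subunit that binds the flavin and takes electrons from NADH, was at 6.40 and 6.39 in WT normal and at 5.44 and 5.31 in WT IRI. Its fall of -1.02 ± 0.09 (adjusted p = 0.000253) was the second of the complex in WT. In KD its difference was -1.14. Ndufa6, an accessory subunit of the LYR-motif family, was second in KD. It was at 4.53 and 4.47 in WT normal, 3.77 and 3.50 in WT IRI, 4.62 and 4.56 in KD normal, and 3.26 and 3.14 in KD IRI. Both KD IRI arrays lay below both WT IRI arrays. Ndufa6 fell 1.82-fold in WT (-0.86 ± 0.10, adjusted p = 0.000796) and 2.62-fold in KD (-1.39 ± 0.10, adjusted p = 5.83e-05). The smallest falls of the complex were those of 2 accessory subunits, Ndufa7 in WT (-0.46) and Ndufa2 in KD (-0.50).

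The 4 subunits of complex II, which is also succinate dehydrogenase of the TCA cycle, fell in both genotypes. Sdha, the flavoprotein that oxidises succinate, was at 3.59 and 3.73 in WT normal and at 2.61 and 2.40 in WT IRI. It was at 3.84 and 3.79 in KD normal and at 2.48 and 2.42 in KD IRI. It fell 2.23-fold in WT (-1.16 ± 0.09, adjusted p = 0.000222) and 2.57-fold in KD (-1.36 ± 0.09, adjusted p = 4.91e-05), with no overlap in either. Sdhb, the iron-sulphur subunit, was at 5.49 and 5.51 in WT normal, 4.50 and 4.26 in WT IRI, 5.66 and 5.57 in KD normal, and 4.13 and 4.01 in KD IRI. Its KD IRI arrays were the lowest of the 8. The fall was -1.12 ± 0.09 in WT (adjusted p = 0.000248) and -1.54 ± 0.09 in KD (adjusted p = 3.46e-05). Of the membrane anchors, Sdhc differed by -1.08 in WT and -1.31 in KD, and Sdhd by -0.74 and -0.73.

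All 8 Uqcr genes of complex III fell in both genotypes, with differences from -1.10 to -0.63 in WT and from -1.42 to -0.74 in KD. Uqcrfs1, the Rieske iron-sulphur protein, was at 5.90 on both WT normal arrays and at 4.90 and 4.71 in WT IRI. It was at 6.05 and 5.97 in KD normal and at 4.65 and 4.53 in KD IRI. It fell 2.14-fold in WT (-1.10 ± 0.09, adjusted p = 0.000199) and 2.67-fold in KD (-1.42 ± 0.09, adjusted p = 3.46e-05). With normexp the calls of Uqcrh and Uqcrq were lost in both genotypes and those of Uqcr10 and Uqcrc1 in KD, and with quantile normalization those of Uqcr10, Uqcrh and Uqcrq were lost in WT. Uqcrc2, a core protein without a redox group, had differences of -1.04 in WT and -1.12 in KD. The smallest fall was that of Uqcrb in both genotypes. Cyc1, the cytochrome c1 subunit of this complex that the naming rule does not take in, fell too, by differences of -0.90 in WT (adjusted p = 0.000697) and -1.02 in KD (adjusted p = 0.000195).

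Complex IV was the least uniform, and its exceptions were tissue isoforms. In WT 13 of its 16 genes fell and in KD 14 fell. With normexp 3 of these calls were lost in WT (Cox5a, Cox6a1 and Cox8a) and 6 in KD (the same 3, Cox4i1, Cox5b and Cox7a2l). With quantile normalization Cox5a and Cox6a1 were lost in WT, and Cox5b, Cox6a1 and Cox7a2l in KD. Cox7a1, the isoform typical of heart and skeletal muscle, was at 3.58 and 3.56 in WT normal and at 1.44 and 0.80 in WT IRI. It was at 3.12 and 3.01 in KD normal and at 0.82 and 0.62 in KD IRI. The injured arrays were lower by far more than the replicates differed, and this was the largest fall of the 88 genes in both genotypes. Cox7a1 fell 5.45-fold in WT (-2.45 ± 0.19, adjusted p = 0.000201) and 5.09-fold in KD (-2.35 ± 0.19, adjusted p = 9.04e-05). Its paralog Cox7a2, the isoform of most tissues, fell less, with differences of -0.92 in WT and -0.99 in KD. Cox7a2l, which takes part in joining complexes III and IV into supercomplexes, had differences of -0.44 in WT (adjusted p = 0.00596) and -0.24 in KD (adjusted p = 0.0457). The KD call of Cox7a2l was lost with 7 of the 8 arrays left out in turn, all but KD normal array 2, and with normexp, quantile normalization, the deposited table, no intensity trend or only the arrays compared.

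Cox6a2, the heart and muscle isoform of Cox6a, did not follow the rest in WT. It was at -0.44 and -0.22 in WT normal, -0.10 and -0.24 in WT IRI, -0.92 and 0.35 in KD normal, and -1.45 and -1.88 in KD IRI. The WT groups overlapped, the KD normal arrays lay far apart, and both KD IRI arrays were the lowest of the 8. The difference was 0.16 ± 0.37 in WT (adjusted p = 0.755), and in KD -1.38 ± 0.37 (adjusted p = 0.0165), a call that was lost without KD IRI array 2. Its paralog Cox6a1 fell in both, with differences of -0.45 in WT (adjusted p = 0.00482) and -0.47 in KD (adjusted p = 0.00249), but under quantile normalization the WT value was 0.26 (adjusted p = 0.0550).

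Cox6b2, known as the testis isoform of Cox6b, was at -0.98 and -0.72 in WT normal and at -1.05 and -0.77 in WT IRI. It was at -1.36 and -1.41 in KD normal and at -1.60 and -1.34 in KD IRI. Injured and normal arrays overlapped in both genotypes, with differences of -0.05 ± 0.15 and -0.08 ± 0.15, while all 4 KD arrays lay below all 4 WT arrays. Its paralog Cox6b1 fell in both, with differences of -0.95 and -1.12. Of the other widely expressed subunits, Cox4i1 fell with differences of -0.85 in WT and -0.86 in KD. Cox8a fell with -0.79 and -0.89, and Ndufa4, once placed in complex I and now in complex IV, with -0.92 and -1.07. Cox7c, a small subunit, fell 2-fold in WT (adjusted p = 0.000394), the second largest fall of the complex there. The 3 members kept out of the test, Cox4i2, Cox7b2 and Cox8c, were not well above background on any of the 8 arrays.

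Cox8b, the isoform of muscle and brown fat, varied between arrays of the same group. It was at -2.27 and -5.59 in WT normal, -4.55 and -3.01 in WT IRI, -5.14 and -1.56 in KD normal, and -2.20 and -4.89 in KD IRI. It was well above background on 6 of the 8 arrays, and all groups overlapped. The brown fat gene Ucp1 was at -0.73 and -4.82 in WT normal, -3.15 and 1.02 in WT IRI, -5.25 and -0.50 in KD normal, and -3.33 and -4.65 in KD IRI. Adipoq, Plin1, Cidea and Fabp4, the remaining fat markers, were likewise higher on array 1 than array 2 in WT normal and KD IRI, and lower in KD normal. Fabp4 varied least, at 4.54 and 4.08 in WT normal, 5.24 and 5.57 in WT IRI, 4.72 and 5.05 in KD normal, and 5.05 and 4.93 in KD IRI. Cox8b, Ucp1, Cidea, Plin1 and Fabp4 were higher on array 2 in WT IRI, and Adipoq was about equal. The summed level of the 5 fat markers, in multiples of the 75th percentile, was 17.3 to 26.3 in WT normal, 26.7 to 36.3 in KD normal, 38.8 to 51.5 in WT IRI and 30.9 to 34.8 in KD IRI. That sum was mostly Fabp4. Of the 5 markers, 1 was called higher after injury in WT and none lower, and none was called in KD. Their part in the Cox8b values was not tested. Muscle markers lay low on all arrays: 4 of 7 were measured, and their sum ran from 0.291 to 0.657 over the 8 arrays. After injury 3 of the 4 were called lower and 1 higher in WT, and 1 lower and 1 higher in KD. Without injury 2 were called lower and 1 higher in KD. The part of muscle markers in the values of Cox7a1 was not tested.

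**Figure D3:**
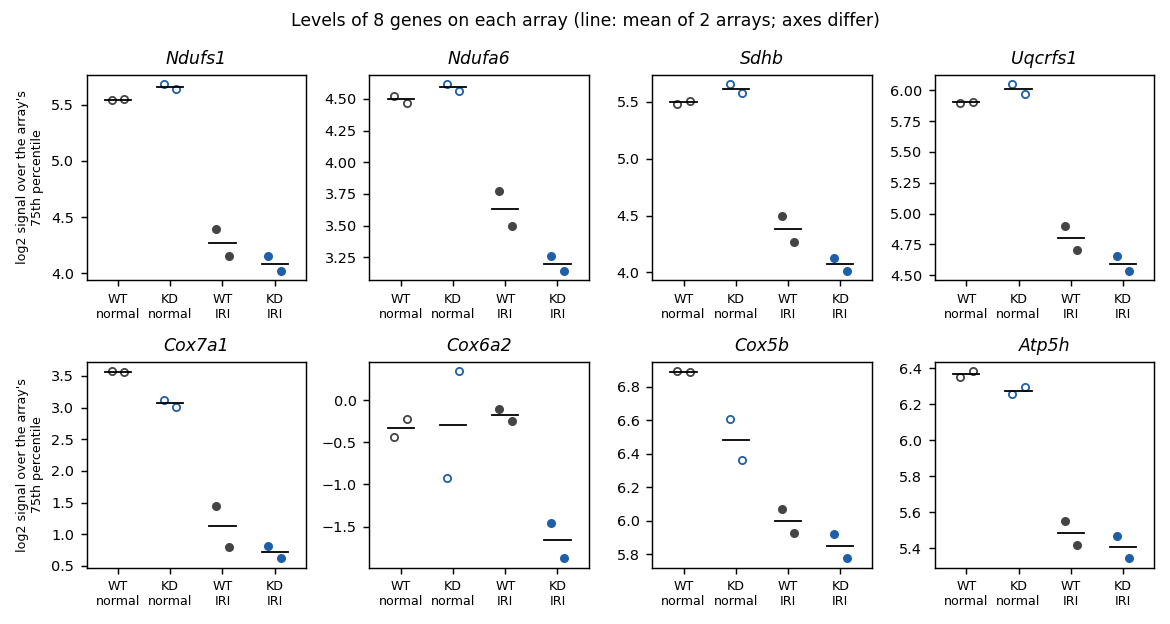
Log2 level of 8 genes on each array by group (points; open for normal, filled for IRI; lines are the means of 2 arrays; the axes differ between panels). In 7 panels both IRI groups lie below both normal groups. In the Cox6a2 panel the KD IRI group, at -1.45 and -1.88, lies below the rest.

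All 17 Atp5 genes of complex V fell in both genotypes, with differences from -0.88 to -0.48 in WT and from -1.06 to -0.52 in KD; under quantile normalization Atp5g3 was above 0 in WT. With normexp 4 of these calls were lost in WT (Atp5a1, Atp5b, Atp5g3 and Atp5o) and 8 in KD (the same 4, Atp5c1, Atp5e, Atp5g2 and Atp5h). With quantile normalization Atp5b, Atp5g3 and Atp5o were lost in WT, and Atp5e, Atp5g2 and Atp5g3 in KD. The 5 genes of the catalytic F1 part had medians of -0.74 in WT and -0.88 in KD. The 4 genes of the peripheral stalk, which holds the catalytic part still, had medians of -0.78 and -0.91. Atp5h, of that stalk, was at 6.35 and 6.38 in WT normal, 5.55 and 5.42 in WT IRI, 6.26 and 6.30 in KD normal, and 5.47 and 5.34 in KD IRI. The injured arrays of both genotypes covered nearly the same range. Atp5h fell 1.85-fold in WT (-0.88 ± 0.08, adjusted p = 0.000279) and 1.83-fold in KD (-0.87 ± 0.08, adjusted p = 0.000119).

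Atp5a1, the alpha subunit of the catalytic part, was at 7.63 on both WT normal arrays and at 6.78 and 6.77 in WT IRI, a difference of -0.85 ± 0.07 (adjusted p = 0.000199). Atp5md, a small membrane subunit of the synthase dimer, had the largest fall in KD. It was at 5.92 on both KD normal arrays and at 4.91 and 4.81 in KD IRI (-1.06 ± 0.09, adjusted p = 9.06e-05). Atp5pb, the stalk's b subunit, followed with -1.04 in KD. Atp5g1, Atp5g2 and Atp5g3 encode the same mature c-ring protein, and their differences were -0.78, -0.59 and -0.48 in WT and -0.99, -0.52 and -0.66 in KD. Atp5g3 was the smallest fall of complex V in WT, and under quantile normalization its WT value was 0.098 (adjusted p = 0.402). The inhibitor of the synthase, Atpif1, which the naming rule does not take in, fell as well, with a difference of -0.51 in WT (adjusted p = 0.0108) and in KD (adjusted p = 0.00716).

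Of the 7 Ndufaf assembly factors, which help build complex I but are not part of it, 5 fell in WT and 6 in KD. Ndufaf6 differed by -0.93 ± 0.13 in WT (adjusted p = 0.00172) and -0.99 in KD, and Ndufaf1 by -0.76 and -0.99. Ndufaf2 fell least, with differences of -0.27 in WT (adjusted p = 0.0430) and -0.25 in KD (adjusted p = 0.0450). Both calls were lost with normexp, with quantile normalization, without an intensity trend and with only the arrays compared. Both were also lost without either WT normal array or either KD IRI array. The WT call was lost without WT IRI array 2, and the KD call with the deposited table and without KD normal array 1. Ndufaf4 was at 2.71 and 2.43 in WT normal, 2.24 and 1.72 in WT IRI, 3.25 and 2.80 in KD normal, and 2.34 and 2.18 in KD IRI. Both KD normal arrays were the highest of the 8. Its injury difference of -0.58 ± 0.21 did not pass in WT (adjusted p = 0.0605), but it passed with the slide as a block, with normexp, with the mean of all probes, and without WT IRI array 1 or either KD normal array. The difference of -0.77 in KD passed (adjusted p = 0.0182), a call lost without KD normal array 1 or KD IRI array 2. In a separate limma fit over single probes, the other probes of Ndufaf4 gave -1.01 (adjusted p = 0.00700) and -0.50 (adjusted p = 0.156) in WT. In KD they gave -1.36 and -1.13, and both passed. Ndufaf5 did not pass in either genotype, with differences of -0.04 ± 0.11 and 0.04 ± 0.11. It was at 0.16 and 0.14 in WT normal and at 0.24 and -0.01 in WT IRI, so the groups overlapped.

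Further probes for the same genes moved alike. For 19 genes the array held 24 other probes above background, and 23 of these were lower in WT and all 24 in KD. Their median differences were -0.83 and -0.999. None of these was called between the genotypes, with or without injury, and 1 was called for the interaction. Size differed between probes of a gene, and the other probe lay below the brightest in 15 of 24 cases in WT and 18 of 24 in KD. For Atp5b, the beta subunit that makes ATP, the brightest probe had differences of -0.68 in WT and -0.82 in KD. The other probes of Atp5b gave -0.95 and -1.06 in WT and -1.31 and -1.54 in KD. For Atp5a1 the second probe gave -1.10 in WT and -1.31 in KD, against -0.85 and -0.89 for the brightest. The probes thus gave the same direction and unequal sizes.

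Without injury, the genotypes differed little. In KD normal against WT normal, 1 of the 88 genes was called lower and none higher, with 8.79% of all genes called lower and 6.39% higher. The median difference of the 88 was -0.01, and that of all genes -0.03. With normexp these medians were -0.17 and 0.15, and 82 of the 88 values were below 0. Both KD arrays lay below both WT arrays for 20 genes and above for 19, patterns found in 34.5% and 29.9% of all genes. The gene called was Cox5b, a nuclear-encoded subunit of complex IV. It was at 6.89 on both WT normal arrays and at 6.61 and 6.36 in KD normal, a difference of -0.40 ± 0.10 (1.32-fold lower, adjusted p = 0.0436). With injury it was at 6.07 and 5.93 in WT and at 5.92 and 5.78 in KD, where the genotype difference was -0.15 ± 0.10 (adjusted p = 0.399). The Cox5b call did not hold without either WT normal array, without KD normal array 2, without either KD IRI array, with normexp, without an intensity trend, without the filter on dim probes, or with only the 4 arrays compared.

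Other members of complex IV came near the threshold without injury. Cox6b2 differed by -0.53 ± 0.15 (adjusted p = 0.0570), Cox7a1 by -0.50 ± 0.19 (adjusted p = 0.125) and Cox7a2l by -0.29 ± 0.09 (adjusted p = 0.0682). For Cox7a1 both KD arrays lay below both WT arrays, and it passed with normexp, with only the arrays compared and without either WT IRI array. Cox6b2 also passed without either WT IRI array, and Cox7a2l without KD normal array 1 and with quantile normalization. In the remaining complexes the largest differences were 0.15 in Sdha, 0.11 in Uqcrfs1, -0.25 in Ndufa5, -0.19 in Atp5g2 and 0.46 in Ndufaf4. None of these passed, although Atp5g2 did with quantile normalization. Ndufaf7, also an assembly factor, differed by -0.22 ± 0.08 (adjusted p = 0.0984), and it too passed with quantile normalization. With the slide as a block, 4 of the 88 genes passed: Cox5b, Cox6b2 and Cox7a2l were lower and Ndufaf4 was higher, with 10.3% of all genes called lower and 7.83% higher in that fit. For 82 of the 88 genes the 95% confidence interval of the difference lay within a 1.5-fold change either way. The exceptions were Cox5b, Cox6a2, Cox6b2, Cox7a1, Cox8b and Ndufaf4. Within slides 1 and 2 the median difference was 0.0011 and -0.023.

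After injury, values were slightly lower in KD, and no gene passed. In KD IRI against WT IRI, 0 of the 88 genes were called by limma, with 3.42% of all genes called lower and 3.69% higher. At an unadjusted p under 0.05, 12 of the 88 were lower and none was higher, against 14.1% and 12.7% of all genes. The share of members called lower by that rule was thus near that of the array as a whole. The median difference was -0.14, against -0.04 over all genes, and 80 of the 88 values were below 0; with normexp the median of the 88 was 0.014 and that of all genes -0.22. Both KD arrays lay below both WT arrays for 38 genes, a pattern found in 31.3% of all genes, and above both for none, against 25.7%. The medians were -0.16 for complexes I and II, -0.13 for complexes III and V, and -0.14 for complex IV. Within slides 1 and 2 the median was -0.16 and -0.12. For 81 of the 88 genes the 95% interval lay within a 1.5-fold change either way, and it reached beyond for Cox6a2, Cox6b2, Cox7a1, Cox8b, Ndufa6, Ndufaf4 and Ndufc2.

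The largest of these differences was that of Cox6a2, at -1.49 ± 0.37 (adjusted p = 0.0610), followed by Cox6b2 at -0.56 ± 0.15 (adjusted p = 0.0706). Ndufa6 differed by -0.44 ± 0.10 (adjusted p = 0.0513), Sdhb by -0.31 ± 0.09 (adjusted p = 0.0953), Atp5g1 by -0.25 ± 0.10 (adjusted p = 0.167) and Uqcrfs1 by -0.21 ± 0.09 (adjusted p = 0.179). With the slide as a block, Cox6b2 and Ndufa6 passed as lower in KD, with 4.6% of all genes called lower in that fit. Without WT IRI array 2, Cox7a1, Ndufa6 and Sdhb passed, and without either KD normal array, or with normexp, Cox6a2 passed. Ndufa6 also passed with quantile normalization and with probes well above background on all 8 arrays. The WT IRI arrays were themselves apart, with median shifts of -0.72 and -0.88, and leaving out array 1 or array 2 gave a median genotype difference of -0.060 or -0.22. Leaving out KD IRI array 1 or array 2 gave -0.21 or -0.081. Some nephron markers were also lower in KD after injury: 3 of 14 proximal tubule markers passed as lower (median -0.34), as did 2 of 10 markers of the thick ascending limb and distal tubule (median -0.37) and 2 of 9 collecting duct markers (median -0.26). Without injury 5 of 9 collecting duct markers passed as lower in KD (median -0.54). So did 3 of 10 markers of the thick ascending limb and distal tubule (median -0.27). No proximal tubule marker passed there (median 0.13). The part of these markers in the differences of the 88 genes was not tested.

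**Figure D4:**
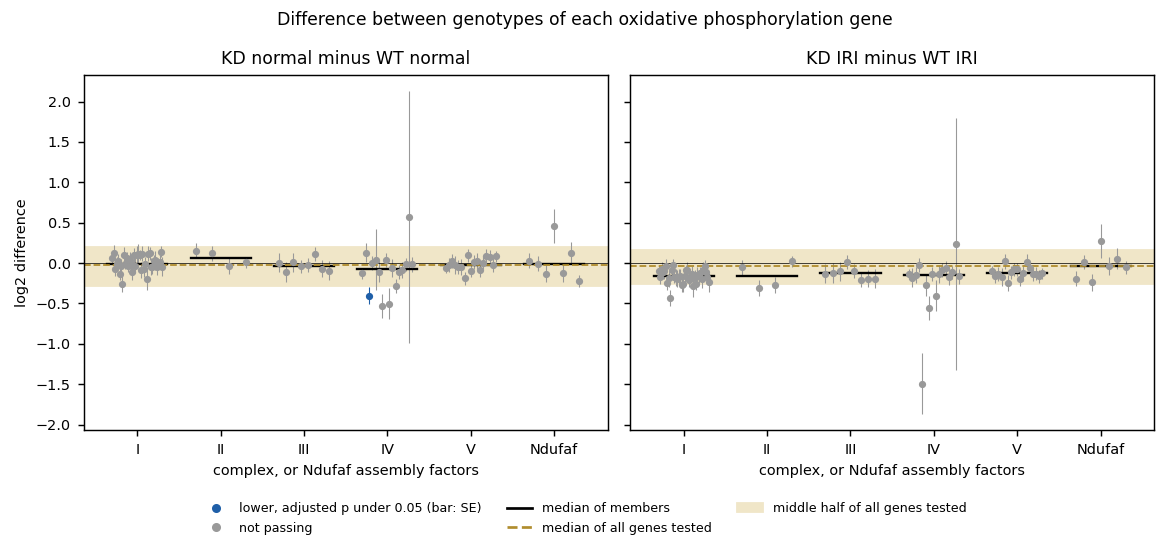
Genotype difference of each gene (log2, KD minus WT, bars are limma SE) by complex without injury (left) and with injury (right), with black lines at the complex medians, a dashed line at the median of all genes and a shaded band at their interquartile range. Cox5b in the left panel is the point that passed the test, and with normexp the median of the 88 genes in that comparison was -0.17. In the right panel the medians of complexes I to V lie between -0.16 and -0.13, and with normexp the median of all 88 genes was 0.014.

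The difference between the 2 injury responses was tested as an interaction, KD response minus WT response. None of the 88 genes passed, with 2.81% of all genes called lower and 3.79% higher, and 8 of the 88 were lower at an unadjusted p under 0.05 in limma, against 12.5% of all genes. The median was -0.12, against -0.0010 over all genes; with normexp it was 0.18, against -0.31 over all genes. It was -0.023 without WT IRI array 1, -0.22 without WT IRI array 2, -0.18 without KD IRI array 1 and -0.054 without KD IRI array 2. Within slides 1 and 2 it was -0.17 and -0.055. Ndufa6 had an interaction of -0.53 ± 0.14 (adjusted p = 0.0781), Sdhb of -0.43 ± 0.13 (adjusted p = 0.106), Uqcrfs1 of -0.32 ± 0.12 (adjusted p = 0.159) and Cox6a2 of -1.54 ± 0.53 (adjusted p = 0.130). Ndufa6 passed with the slide as a block and without WT IRI array 2, and without KD normal array 1, or with normexp, Cox6a2 passed.

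**Figure D5:**
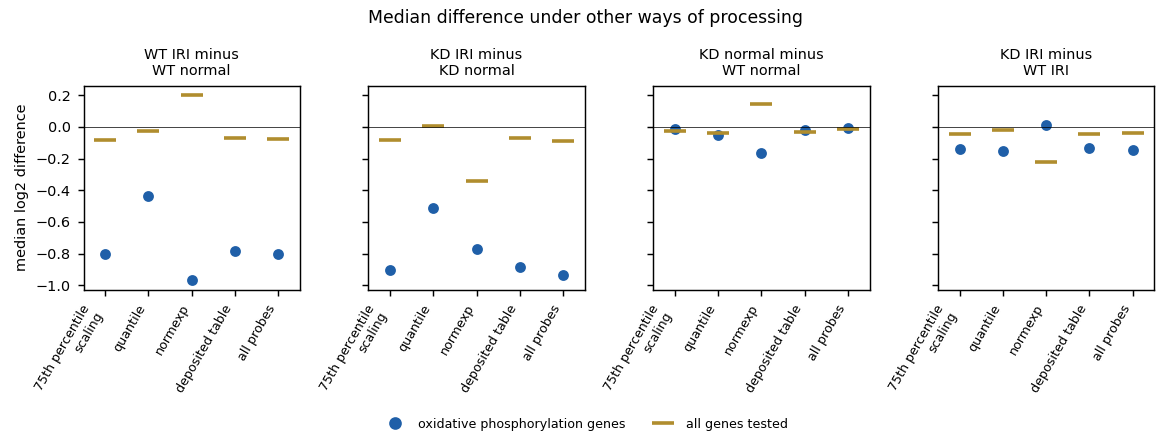
Median log2 difference of the 88 genes (blue points) and of all genes tested (brown bars) under 5 ways of processing, in 4 comparisons. The injury medians stay below 0 under each way shown, although quantile normalization turned Cox6a1 and Atp5g3 above 0 in WT. The KD IRI against WT IRI median moves from -0.14 to 0.014 with normexp. That of KD normal against WT normal moves from -0.01 to -0.17.

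Many genes around the 5 complexes were also lower after injury, in differing shares. Of all genes tested, 25.2% were called lower in WT and 31.8% in KD. Of 13 TCA cycle genes other than Sdh, all 13 fell in both genotypes, with medians of -0.81 in WT and -1.17 in KD. Cytochrome c, encoded by Cycs, fell in both, with differences of -0.39 in WT (adjusted p = 0.0194) and -0.95 in KD (adjusted p = 0.000280). Without injury Cycs was higher in KD, with a difference of 0.42 (adjusted p = 0.0402). Of 36 measured assembly factors without an Nduf symbol, 20 fell and 1 rose in WT. Acad9, a complex I assembly factor, differed by -1.06, Tmem70, which helps assemble complex V, by -0.95, and Uqcc2, a complex III assembly factor, by 0.46. Of 11 genes of coenzyme Q synthesis, 6 fell in WT, among them Coq8a (-1.48) and Coq9 (-1.20). Coq10b, a coenzyme Q chaperone, was higher in KD normal than in WT normal, with a difference of 0.94 (adjusted p = 0.00878). Of 16 carriers, porins and import genes, 6 fell in WT, among them the adenine nucleotide carrier Slc25a5 (-0.85) and the porin Vdac1 (-0.80). Ucp2, an uncoupling protein gene, rose (0.86, adjusted p = 0.0345). Of 78 mitochondrial ribosomal protein genes, 36 fell and 3 rose in WT, with a median of -0.26. In KD 40 of these 78 fell and 7 rose. Of the 36 assembly factors 24 fell and 3 rose there, and of the 16 carriers, porins and import genes 9 fell and 4 rose. Of the 11 genes of coenzyme Q synthesis 7 fell in KD and none rose.

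Most regulators of mitochondrial biogenesis that passed were lower after injury. Of 17 measured, 12 fell and 1 rose in WT, and 10 fell and 2 rose in KD. Esrrb, an estrogen-related receptor, differed by -1.63 (adjusted p = 0.00128) and the coactivator gene Ppargc1b by -1.53 (adjusted p = 0.00482) in WT. Ppargc1a, which encodes the coactivator PGC-1 alpha, fell in both, with -1.27 in WT (adjusted p = 0.00544) and -1.86 in KD (adjusted p = 0.000619). Pprc1, a related coactivator gene, rose by 1.05 in WT (adjusted p = 0.000264) and by 1.18 in KD (adjusted p = 6.69e-05), and it was higher in KD normal by 0.55 (adjusted p = 0.0133). Nrf1, the factor behind the NRF1 core, differed by -0.16 in WT (adjusted p = 0.423). Between the genotypes after injury 3 of the 17 were lower in KD and 1 was higher. The differences were -1.21 for Ppara (adjusted p = 0.0450), -1.004 for Esrrb (adjusted p = 0.0420), -0.78 for Esrrg (adjusted p = 0.0498) and 0.68 for Pprc1 (adjusted p = 0.0149).

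Beside the injury fall of the 88 genes, tubule cell markers mostly fell and leukocyte markers mostly rose. Of 14 proximal tubule markers, 12 fell and 1 rose in WT and all 14 fell in KD, with medians of -1.77 and -2.10. Their summed level was 1107 to 1141 in WT normal, 1200.4 to 1268 in KD normal, 380 to 527 in WT IRI and 337 to 422 in KD IRI. All 10 markers of the thick ascending limb and distal tubule fell in both genotypes, their sum going from 480 to 489 in WT normal and 385 to 401 in KD normal to 230 to 262 in WT IRI and 216 to 228 in KD IRI. Of 9 collecting duct markers, 8 fell in WT and 7 in KD, their sum going from 75.7 to 78.7 in WT normal and 74.4 to 90.5 in KD normal to 37.6 to 45.3 in WT IRI and 31.1 to 37.1 in KD IRI. Of 5 podocyte markers, 1 fell in WT and 2 in KD. Their sum was 87.9 to 183.5 in WT normal, 15.8 to 31.8 in KD normal, 7.46 to 8.73 in WT IRI and 5.34 to 5.90 in KD IRI. That sum followed Synpo, which was at 6.42 and 7.50 in WT normal and at 4.84 and 3.65 in KD normal, lower in KD without injury by a difference of -2.71 (adjusted p = 0.0130), while Nphs1 was higher there (0.46, adjusted p = 0.0437). Of 10 tubule injury markers, 10 rose in WT and 9 in KD. Their sum was 126.2 to 128.1 in WT normal, 117.8 to 155.6 in KD normal and 493.6 to 571.02 over the IRI arrays. Without injury 3 of the 10 passed as higher in KD (median 0.72). Of 7 neutrophil markers, 6 rose in each genotype, and their sum was 0.312 to 0.313 in WT normal, 0.779 to 6.22 in KD normal, 49.1 to 105.3 in WT IRI and 52.8 to 58.8 in KD IRI. Of 6 endothelial markers, 2 rose and 1 fell in each genotype, and their sum was 38.01 to 42.3 over the normal arrays and 33.4 to 49.9 over the IRI arrays. Of 9 macrophage markers, 8 rose and 1 fell in WT and 7 rose and 1 fell in KD. Their sum was 60.1 to 68.9 over the normal arrays and 82.1 to 106.7 over the IRI arrays. The part of these markers in the falls was not tested.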

How the data were processed

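Total RNA (300 ng, per the labels' protocols) from 8 kidney samples was labelled with Cy3 and measured on single-colour arrays. The deposited scanner files give linear spot intensities from which Agilent Feature Extraction 10.7.3.1 had subtracted background and spatial trend, per the file headers. A deposited table of log2 values covers the same arrays, and its scaling and centring are not given in the sources used here. Its columns followed the values used here with r of at least 0.99995, and their medians ran from -0.136 to 0.158.

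Levels were the log2 ratio of intensity to the array's 75th percentile. Control and outlier spots were left out, and repeated spots were averaged per probe. Probes were kept if both arrays of some group were well above background, and the brightest probe stood for its gene. Accessions were named through RefSeq's GRCm38.p6 table, used for names only, which named 26690 of 41174 probes. Promoter sequences are RefSeq's. The fit used limma 3.58.1 (R 4.3.3, data.table, version 1.17.8) on all 8 arrays, with 4 group means, an intensity trend and 4 residual degrees of freedom. Tests were two-sided, with Benjamini-Hochberg adjustment over 20580 genes and a threshold of 0.05. Further probes of the same genes were tested in a separate fit of the same design over 27408 probes, with adjustment over those probes. Precision is limited by the number of arrays.

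The members, lists and tests were chosen with earlier results of these data known. Genes were named by a rule: per complex and comparison the 2 largest changes each way that passed and the largest that did not, and always paralogs, the Sdh genes and Keap1. Genes near the threshold, genes whose calls depend on a setting, Synpo and Nphs1, and Ucp1 and the other fat markers set beside Cox8b were chosen after their values were seen. Each slide held 1 array of every group and equals the replicate number, per the file headers. Deviations of same-numbered arrays correlated between 0.022 and 0.26 across genes, so the slide was run as a block. Other alternatives were normexp (offset 50, on the median signal, because the mean planned for it was not used here), quantile normalization, the deposited table, other filters, probes and designs, and each array left out. The values of 1 gene are not reported here by name; it stays in every count and median.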

Additional observations from a re-analysis of the deposited data

Results flagged for a closer look

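In 3 cases the injury response differed between the genotypes by the interaction term, KD response minus WT response. For the coenzyme Q gene Coq10b the interaction was -0.84 ± 0.18 (limma SE, adjusted p = 0.0457). Coq10b was at 2.16 and 1.89 in WT normal, 1.73 and 1.45 in WT IRI, 3.02 and 2.91 in KD normal, and 1.73 and 1.64 in KD IRI, so the genotypes differed without injury and overlapped after it. For the receptor gene Esrrb it was -1.42 ± 0.31 (adjusted p = 0.0458). Esrrb was at 0.58 and 0.64 in WT normal, -1.35 and -0.69 in WT IRI, 0.84 and 1.21 in KD normal, and -1.97 and -2.07 in KD IRI. For Atp5b the values come from a separate limma fit over single probes. There 1 of the 2 less bright probes had an interaction of -0.48 ± 0.10 (adjusted p = 0.0445), and the other gave -0.36 (adjusted p = 0.0854). The brightest, which stands for the gene, gave -0.14 ± 0.12 (adjusted p = 0.506).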

How the results depend on the processing

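For the 5 counts of called genes, 62 alternatives stayed within 1.5 times the main count and 27 did not. With a fold minimum of 2 the genes called lower went from 83 to 11 in WT and from 85 to 31 in KD, since that minimum removes smaller changes. With normexp the KD count was 56. Leaving out each array gave 82 to 84 in WT and 81 to 85 in KD. In KD normal against WT normal the count was 1, and it became 0 without an intensity trend, without the filter on dim probes or with the fold minimum, 4 with quantile normalization, 4 with the slide (replicate) as a block, and 0 to 3 with an array left out. In KD IRI against WT IRI the count was 0, and it became 1 with normexp, 1 with quantile normalization, 1 with probes above background on all 8 arrays, 2 with the replicate block, and 0 to 3 with an array left out. For the interaction it was 0, and became 1 with normexp, 2 with the replicate block, and 0 to 1 with an array left out. Under quantile normalization the WT injury values of Cox6a1 (0.259) and Atp5g3 (0.0982) turned positive; the cause of these changes was not tested. Genes called over the whole array in WT injury numbered 9432, and 5272 with normexp, 15129 without the filter, and 5898 or 6111 without WT normal array 1 or 2. Where leaving out an array leaves 1 in a group, that array is assumed to vary like the others. Signal over background limits Cox8b, which was dim on 2 arrays.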
